A study of Mus musculus with 16 samples.

Results

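The late cornified envelope group 1 genes described here are 10 genes of mouse chromosome 3, *Lce1a1*, *Lce1a2* and *Lce1b* to *Lce1i*. They were chosen by name, as the rows of the count tables whose Ensembl identifiers carry these symbols in the GENCODE annotation of GRCm39. All 10 were found among 55359 rows, and all 10 passed the filter on low counts, in each sex through the control mice alone. The measurements are bulk RNA sequencing of whole dorsal skin from 16 wild-type C57Bl/6 mice (C57Bl/6N in the study's text) that were 8 weeks old and whose hair follicles were in telogen. In each sex, 4 mice had been exposed to UVB 3 times and 4 had received no UVB. Skin was taken within hours of the last exposure. Both sexes and both treatments share the genotype, and the labels give no other agent. Whole skin holds epidermis, hair follicles, dermis, fat and muscle, so each value is an average over these tissues. Each mouse is 1 library, and p-values measure the spread between mice.

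Late cornified envelope proteins are small proteins that keratinocytes make at the last stage of their differentiation, in the upper granular layer. Transglutaminases cross-link them, with loricrin, involucrin and the small proline-rich proteins, into the cornified envelope, the protein shell that replaces the plasma membrane of the dead cells at the skin surface. Their genes lie side by side in the epidermal differentiation complex. Group 1 genes are known as the set that intact skin expresses, and group 3 genes as the set that is low in intact skin and is induced when the barrier is injured.

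The members lie within 132.4 kb, in the order *Lce1a1*, *Lce1b*, *Lce1a2*, *Lce1c*, *Lce1d*, *Lce1e*, *Lce1f*, *Lce1g*, *Lce1h* and *Lce1i*, at chr3:92553842-92686210 of GRCm39. *Lce1c* lies on the plus strand and the other 9 on the minus strand. Each member has 2 exons, a first exon of 42 to 55 bases and a second one that holds the coding sequence of 133 to 149 codons. Coding sequences were 84.5 to 96.5% identical between members (median of 45 pairs 92.3%), whereas the 250 bases before the start of transcription were 61.6 to 85.2% identical (median 68.8%). The members thus resemble each other more in the coding sequence than upstream of it.

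The last 100 bases before the annotated start are shown for 5 members, to set *Lce1a2*, whose mean level was nearly the same with and without UVB (chr3:92577624-92577723), and *Lce1d*, the gene before *Lce1e* (chr3:92594518-92594617), beside the 3 members with the highest UVB response, *Lce1e* (chr3:92616382-92616481), *Lce1f* (chr3:92627658-92627757) and *Lce1g* (chr3:92659646-92659745). All 5 were read from the minus strand of GRCm39 and are written 5′ to 3′, and the capitals mark 2 blocks of 18 bases that all 10 members hold.

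Lce1a2 promoter: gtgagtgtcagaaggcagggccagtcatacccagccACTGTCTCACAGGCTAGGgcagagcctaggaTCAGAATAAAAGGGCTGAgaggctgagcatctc

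Lce1d promoter: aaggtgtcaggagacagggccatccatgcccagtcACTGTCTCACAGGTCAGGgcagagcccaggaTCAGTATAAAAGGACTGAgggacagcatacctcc

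Lce1e promoter: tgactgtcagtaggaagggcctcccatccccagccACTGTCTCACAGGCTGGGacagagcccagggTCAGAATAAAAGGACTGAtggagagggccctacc

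Lce1f promoter: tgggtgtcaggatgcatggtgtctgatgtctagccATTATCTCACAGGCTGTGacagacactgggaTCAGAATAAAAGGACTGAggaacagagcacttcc

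Lce1g promoter: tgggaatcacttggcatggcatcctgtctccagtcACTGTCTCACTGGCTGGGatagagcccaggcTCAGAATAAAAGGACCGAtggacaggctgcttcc

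The first block reads ANTNTNTCACNGGNNNNG and starts 61 to 65 bases before the annotated start. The second reads TCAGNNTAAAANGNCNNA and starts 30 to 34 bases before it. The blocks start 31 bases apart in 9 members and 30 apart in *Lce1b*. Both were read off the members themselves, so that all 10 hold them is no finding. Among 21627 promoters of protein-coding genes, searched over 250 bases on both strands, the first block was in 20 (0.092%), of which 10 were members, and the second in 12 (0.055%), which were the 10 members, *Lce1j* and *Gm38119*. TATAAA, held by 12.5% of promoters, was found in 1 member, *Lce1d*, where it lies inside the second block. Letters of motifs of factors known in keratinocytes were searched in the same way. TGANTCA of AP-1 (6.5% of promoters), AACCNGTT of the grainyhead factors (1.9%) and TTGCNNAA of C/EBP (9.9%) were in 0 members, TGACNNNGC of NRF2 (9.3%) was in *Lce1d*, and CACCC of KLF factors (51.4%) was in *Lce1b*, *Lce1c*, *Lce1f* and *Lce1h*.

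Reads on genes numbered 16495776 to 33404831 per mouse, and counts of a single member in a mouse ran from 58, for *Lce1g* in a no-UVB male, to 8576, for *Lce1a1* in a UVB-irradiated male. Because the members resemble each other, the share of their transcripts that occurs nowhere else among genome and transcripts was counted. Of windows of 100 bases it was 95.1% in *Lce1e*, the lowest, and all in *Lce1a2*, and of windows of 50 bases 73.0 (*Lce1i*) to 92.3% (*Lce1f*). The tables list 0 reads with several positions, so reads that match more than 1 member are not in these counts. *Lce1a1*, *Lce1b* and *Lce1a2* overlap *Gm35639* on the opposite strand, and over all members the other strand held 0.04 to 0.32% of the reads. Levels are given as CPM, read counts scaled to the library's reads on genes, after TMM scaling of the libraries.

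In males, 5 of the 10 members rose after UVB and none fell. They are the neighbours *Lce1e*, *Lce1f*, *Lce1g*, *Lce1h* and *Lce1i*, and their fitted levels were 2.26 to 11.6 times those of no-UVB males. A gene was counted as risen at a Benjamini-Hochberg adjusted p under 0.1 over all genes in edgeR's quasi-likelihood test and a log2 fold change above 1. Of the 16535 genes tested, 4.08% rose by this rule, and 547 genes fell by the same limits. In whole skin, more cells of a type and more RNA per cell cannot be told apart. The median log2 fold change of the members was 1.05, and that of all genes −0.02.

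*Lce1g* showed the highest response. Its level was 3.495, 2.67, 11.3 and 9.63 CPM in the 4 no-UVB males and 91.1, 107, 66.8 and 43.3 CPM in the 4 UVB-irradiated males. Every irradiated male was above every control male, and the lowest irradiated male was replicate 4. The log2 fold change was 3.54 ± 0.51 (SE; edgeR, adjusted p = 0.00106, n = 4 per group). *Lce1f* was at 17.7, 16.1, 40.6 and 34.8 CPM without UVB and at 223, 204, 144 and 134 CPM after it, again without overlap. Its log2 fold change was 2.71 ± 0.36 (edgeR, adjusted p = 0.000631). *Lce1e*, the gene before *Lce1f* along the chromosome, was at 9.83, 12.3, 26.0 and 20.9 CPM without UVB and at 110, 118, 84.1 and 55.3 CPM after it. The groups did not overlap here either, and the log2 fold change was 2.44 ± 0.38 (edgeR, adjusted p = 0.00136).

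On the other side of *Lce1g*, the values were lower with each gene. *Lce1h* was at 11.46, 9.48, 22.1 and 21.9 CPM in no-UVB males and at 59.5, 68.7, 43.4 and 28.0 CPM in irradiated males, a log2 fold change of 1.65 ± 0.38 (edgeR, adjusted p = 0.00926). *Lce1i* was at 22.4, 17.6, 42.8 and 36.6 CPM without UVB and at 76.9, 89.4, 60.03 and 39.2 CPM after it. The groups of *Lce1h* did not overlap, but irradiated replicate 4 of *Lce1i* lay below control replicate 3. The log2 fold change of *Lce1i* was 1.18 ± 0.36 (edgeR, adjusted p = 0.0277). Without no-UVB male replicate 2 it was 0.996, just under the fold limit (edgeR, adjusted p = 0.0554). With the replicate number added to the fit, *Lce1i* had an adjusted p of 0.120 (edgeR) and did not pass.

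**Figure D1:**
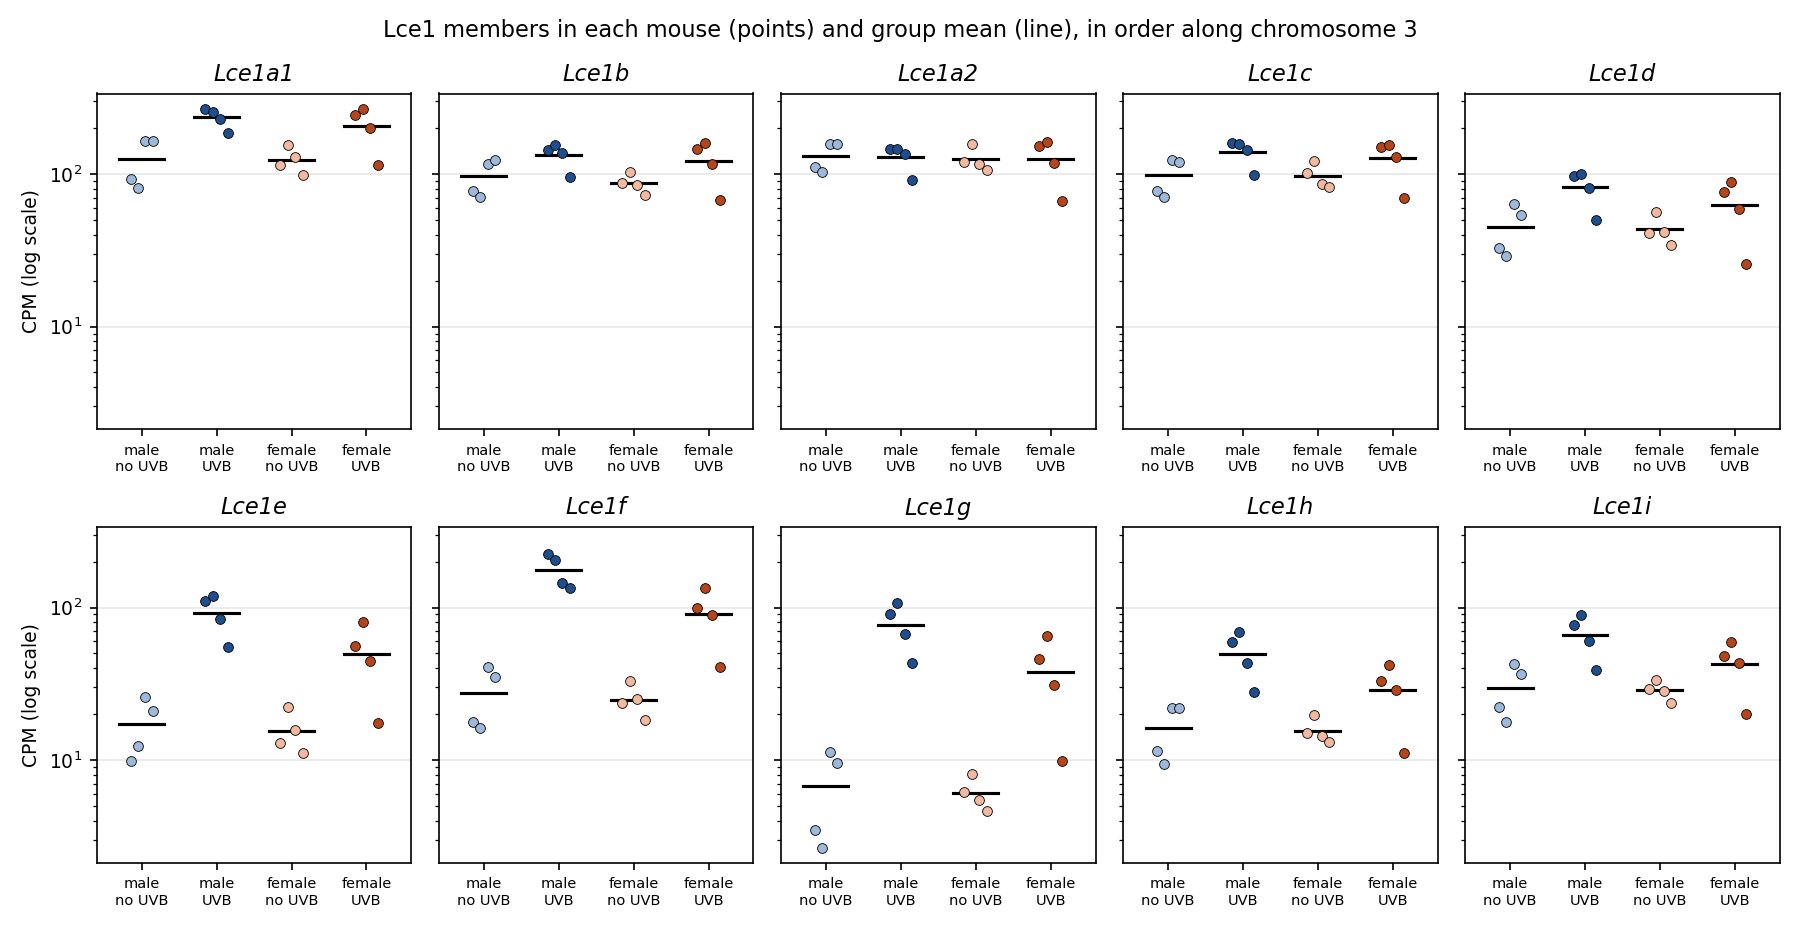
Level of each member in every mouse, in CPM on a log axis, for no-UVB and UVB-irradiated males and females, with 4 points per group and a line at the group mean. *Lce1e*, *Lce1f* and *Lce1g* show the widest step from no UVB to UVB in both sexes, while the 4 group means of *Lce1a2* lie between 125 and 132 CPM.

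The 5 members at the other end of the cluster did not pass both limits in males. *Lce1a1*, *Lce1d* and *Lce1c* passed the adjusted p alone, with log2 fold changes of 0.93 ± 0.26, 0.90 ± 0.32 and 0.54 ± 0.23 (edgeR, adjusted p = 0.0189, 0.0502 and 0.0887). With them, 8 members were higher at the adjusted p alone, as were 29.0% of all genes. *Lce1b* had 0.48 ± 0.22 (edgeR, adjusted p = 0.1001). *Lce1a1* was at 92.1, 80.9, 166 and 163 CPM without UVB and at 267, 257, 229.7 and 186 CPM after it, with no overlap. *Lce1d* was at 32.7, 29.0, 63.4 and 53.6 CPM without UVB and at 97.5, 100.2, 80.8 and 49.95 CPM after it, and irradiated replicate 4 lay among the controls. Leaving out 1 mouse took these genes past the fold limit: *Lce1a1* (1.03) and *Lce1d* (1.08) without UVB-irradiated male replicate 4, *Lce1a1* (1.11) and *Lce1d* (1.14) without no-UVB male replicate 3, and *Lce1a1* (1.07) without no-UVB male replicate 4.

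*Lce1a2* gave no detectable difference. It was at 111, 103, 157 and 158 CPM in no-UVB males and at 146, 147, 136 and 91.5 CPM in irradiated males, and the ranges overlap. The log2 fold change was 0.00 ± 0.20 (edgeR, adjusted p = 0.999). Its gene lies between *Lce1b* and *Lce1c*, which had 0.48 and 0.54 on the log2 scale. Over all members, every irradiated male was above every control male in 5, *Lce1a1*, *Lce1e*, *Lce1f*, *Lce1g* and *Lce1h*, which was so for 22.9% of the genes tested.

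In females, 3 members rose after UVB, *Lce1e*, *Lce1f* and *Lce1g*, and none fell. Of the 16883 genes tested, 1.63% rose by the same rule, and 183 genes fell. The median log2 fold change of the members was 0.66, and that of all genes 0.00. *Lce1g* was at 6.15, 8.12, 5.47 and 4.65 CPM in no-UVB females and at 46.0, 65.4, 30.8 and 9.86 CPM in irradiated females. The groups did not overlap, although irradiated replicate 4 came close to the controls, and the log2 fold change was 2.65 ± 0.48 (edgeR, adjusted p = 0.00636). *Lce1f* was at 23.7, 32.7, 25.1 and 18.2 CPM without UVB and at 99.1, 134, 89.0 and 40.6 CPM after it. Its groups did not overlap, and its log2 fold change was 1.87 ± 0.32 (edgeR, adjusted p = 0.00479). *Lce1e* was at 12.9, 22.2, 15.7 and 11.1 CPM without UVB and at 55.8, 80.7, 44.6 and 17.5 CPM after it. Irradiated replicate 4 of *Lce1e* lay inside the range of the controls, and the log2 fold change was 1.69 ± 0.40 (edgeR, adjusted p = 0.0199). With every gene of at least 1 count in the fit, *Lce1e* had an adjusted p of 0.120 (edgeR) and did not pass.

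Of the other members in females, *Lce1h* (0.89 ± 0.33, adjusted p = 0.0955) and *Lce1a1* (0.74 ± 0.24, adjusted p = 0.0681) passed the adjusted p of edgeR alone. This made 5 members, and 12.8% of all genes passed it in this direction. *Lce1h* was at 15.03, 19.7, 14.5 and 13.1 CPM without UVB and at 33.0, 41.9, 28.6 and 11.2 CPM after it, so that irradiated replicate 4 was the lowest of all 8 females. Without that mouse *Lce1h* passed both limits, at 1.16 (edgeR, adjusted p = 0.00300). *Lce1i*, *Lce1d*, *Lce1b* and *Lce1c* had log2 fold changes of 0.59, 0.53, 0.49 and 0.38 (edgeR, adjusted p = 0.176, 0.296, 0.186 and 0.298). *Lce1a2* was at 119.8, 158, 116 and 106 CPM without UVB and at 154, 162, 119 and 66.3 CPM after it, and its log2 fold change was 0.01 ± 0.25 (edgeR, adjusted p = 0.980). Every irradiated female lay above every control female for 2 members, *Lce1f* and *Lce1g*, and for 11.1% of the genes tested.

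**Figure D2:**
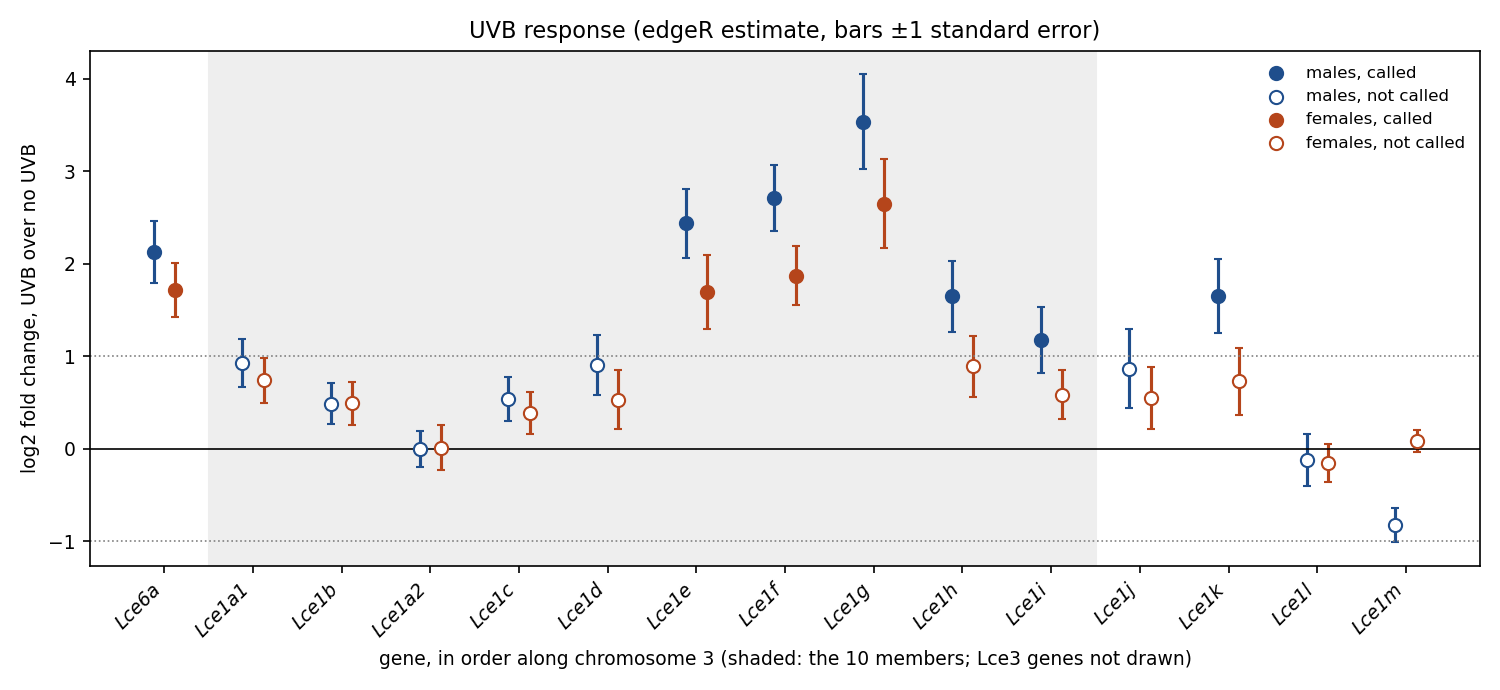
Log2 fold change of UVB over no UVB from the edgeR fit in males and females for the 10 members and for *Lce6a* and *Lce1j* to *Lce1m*, in order along chromosome 3, with bars of 1 SE and 4 mice per group. Filled points passed the adjusted p and the fold limit, and in both sexes the values climb from *Lce1a2*, near 0, to *Lce1g* (3.54 in males, 2.65 in females) and decline again to *Lce1i*.

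The study asked how male and female skin differ in their response to UVB, and this difference was tested over all 16 mice. No member had a response that differed between the sexes at an adjusted p under 0.1 in edgeR, and DESeq2's Wald test gave 0 members too. An unadjusted p under 0.05 in edgeR was found in 0 members and in 3625 of all 17406 genes. Of 17406 genes, 2.75% had a higher response in males at the adjusted p, and 740 genes had a lower one. The difference of the log2 fold changes, male minus female, was 0.87 ± 0.75 for *Lce1g*, 0.83 ± 0.49 for *Lce1f* and 0.73 ± 0.58 for *Lce1e* (edgeR, adjusted p = 0.538, 0.354 and 0.501). For *Lce1a2* it was −0.03 ± 0.35 (edgeR, adjusted p = 0.975). Differences of this size were not detectable with these SEs, which does not show that the sexes respond alike.

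Without UVB the members had similar levels in the 2 sexes. The log2 difference, male minus female, was 0.01 to 0.15. In edgeR 0 members passed, and 0 did by DESeq2, while 7.21% of genes were higher in males and 797 genes lower. An unadjusted p under 0.05 in edgeR was found in 0 members and in 3857 of all 17406 genes. After UVB, *Lce1f* was higher in males, with a log2 difference of 0.96 ± 0.34 (edgeR, adjusted p = 0.0677), as were 12.8% of all genes. This call was lost without irradiated female replicate 1 (adjusted p = 0.118), 3 (0.109) or 4 (0.134) and without irradiated male replicate 1 (0.167) or 2 (0.140), all in edgeR. *Lce1e* (0.88 ± 0.40) and *Lce1h* (0.80 ± 0.37) had unadjusted p of 0.0419 and 0.0469 and adjusted p of 0.140 and 0.150 in edgeR. They passed without irradiated male replicate 4 (edgeR, adjusted p = 0.0919 and 0.0806), and *Lce1e* (0.0709) and *Lce1g* (0.0902) did without irradiated female replicate 2.

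The unequal responses changed the make-up of the family. Summed over the 10 members, no-UVB males had 455, 412, 769 and 743 CPM and irradiated males 1375, 1403, 1126 and 821 CPM. In females the sums were 549.7, 710, 548 and 463 CPM without UVB and 1050, 1215, 859.6 and 442 CPM after it. All irradiated males exceeded all control males, whereas irradiated female replicate 4 had less than any control female. *Lce1e*, *Lce1f* and *Lce1g* were summed because they had the highest fold changes in these same mice, so their share describes those fold changes again and is no separate support. They took 8.33% ± 1.46 of the summed CPM in no-UVB males and 29.0% ± 2.18 in irradiated males (SD, n = 4 each). In females the same share was 8.10% ± 0.688 without UVB and 19.2% ± 3.12 after it. These are shares of reads, not of molecules, since CPM is not corrected for gene length. The share was higher in each of the 8 irradiated mice, irradiated female replicate 4 included (15.4%), than in any control mouse (at most 10.2%).

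**Figure D3:**
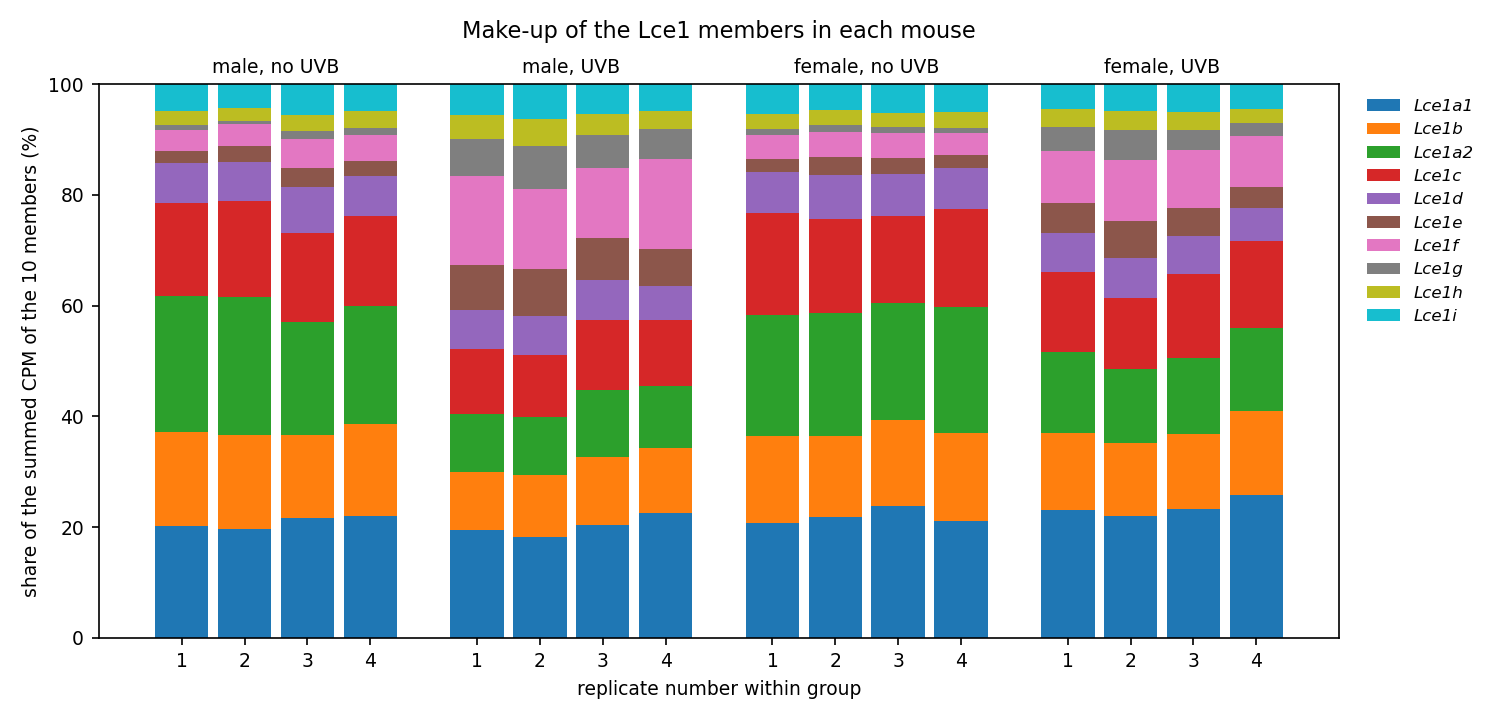
Share of each member in the summed CPM of the 10 members, in percent of reads and not corrected for gene length, with 1 stacked bar per mouse in 4 groups. *Lce1e*, *Lce1f* and *Lce1g* together are 6.82 to 10.2% in the no-UVB mice and 15.4 to 30.8% in the irradiated mice.

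Ratios between neighbouring genes set their UVB responses side by side, since a factor that scales all members of a mouse alike cancels in them. The log2 ratio of each member to the one before it was compared between UVB and no UVB within each sex, in 18 exact two-sided permutation tests whose smallest possible p is 0.0286. The pairs were chosen after the levels were seen. A change in a ratio is close to the difference of the fold changes given above for its genes, so it is no separate support for them. Of these tests, 13 had a Benjamini-Hochberg adjusted p under 0.1 over the 18. The ratio of *Lce1e* to *Lce1d* was higher after UVB by 1.56 ± 0.12 in males and 1.13 ± 0.12 in females (SE of the difference; exact permutation p = 0.0286, adjusted 0.0429 in each). The ratio of *Lce1h* to *Lce1g* was lower, with differences of −2.05 ± 0.21 and −1.63 ± 0.19, and so was that of *Lce1a2* to *Lce1b*, with −0.50 ± 0.05 and −0.48 ± 0.04 (exact permutation p = 0.0286, adjusted 0.0429 in each). In males *Lce1g* to *Lce1f* was higher by 0.92 ± 0.24 (exact permutation p = 0.0286), with 0.60 ± 0.24 in females (0.114), which did not pass. The ratio of *Lce1i* to *Lce1h* was lower in males, with a difference of −0.47 ± 0.06 (exact permutation p = 0.0286), with −0.26 ± 0.09 in females (0.0857, adjusted 0.110), which did not pass. *Lce1f* to *Lce1e* (males 0.31 ± 0.15, exact permutation p = 0.114, and females 0.23 ± 0.13, p = 0.143) and *Lce1d* to *Lce1c* in females (0.08 ± 0.15, exact permutation p = 0.600) did not pass either. *Lce1d* to *Lce1c* passed in males (0.37 ± 0.10, exact permutation p = 0.0571, adjusted 0.0791). *Lce1b* to *Lce1a1* was lower in males and females (−0.48 ± 0.09 and −0.26 ± 0.06), and *Lce1c* to *Lce1a2* was higher (0.55 ± 0.05 and 0.39 ± 0.06). Each of these had an exact permutation p of 0.0286, adjusted 0.0429.

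Per kilobase of exon, the order of the levels shifted with UVB. In no-UVB males the mean levels were, from the top, *Lce1a2* at 185 ± 41.0 CPM per kb (SD), *Lce1a1* at 178 ± 64.2, *Lce1b* at 149 ± 41.4, *Lce1c* at 136 ± 38.8, *Lce1d* at 65.9 ± 24.4, *Lce1i* at 40.6 ± 16.1, *Lce1e* at 24.3 ± 10.6, *Lce1h* at 23.0 ± 9.45, *Lce1f* at 19.9 ± 8.95 and *Lce1g* at 7.33 ± 4.68. Of these neighbours in rank, only *Lce1c* and *Lce1d* had ranges that did not overlap. In irradiated males the order was *Lce1a1* at 333 ± 51.5 CPM per kb, *Lce1b* at 205 ± 39.95, *Lce1c* at 194 ± 39.9, *Lce1a2* at 182 ± 36.6, *Lce1e* at 129 ± 39.95, *Lce1f* at 129 ± 31.96, *Lce1d* at 121 ± 34.1, *Lce1i* at 90.3 ± 29.6, *Lce1g* at 83.3 ± 30.2 and *Lce1h* at 70.7 ± 25.5. There only *Lce1a1* and *Lce1b* did not overlap. *Lce1e* and *Lce1f* in males thus stood above *Lce1d* and *Lce1i* in mean level after UVB and below both without it.

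In no-UVB females the order was *Lce1a1* at 176 ± 34.5 CPM per kb, *Lce1a2* at 175 ± 31.7, *Lce1b* at 135 ± 19.5, *Lce1c* at 135 ± 24.5, *Lce1d* at 63.9 ± 14.0, *Lce1i* at 38.98 ± 5.48, *Lce1h* at 22.1 ± 4.07, *Lce1e* at 21.7 ± 6.82, *Lce1f* at 18.2 ± 4.38 and *Lce1g* at 6.59 ± 1.61. Steps without overlap lay between *Lce1c* and *Lce1d*, *Lce1d* and *Lce1i*, *Lce1i* and *Lce1h*, and *Lce1f* and *Lce1g*. In irradiated females it was *Lce1a1* at 293 ± 95.7 CPM per kb, *Lce1b* at 189 ± 63.2, *Lce1a2* at 175 ± 60.8, *Lce1c* at 175 ± 54.5, *Lce1d* at 91.8 ± 40.2, *Lce1e* at 69.8 ± 36.9, *Lce1f* at 66.1 ± 28.0, *Lce1i* at 58.1 ± 22.5, *Lce1g* at 41.1 ± 25.4 and *Lce1h* at 40.6 ± 18.3, and all neighbours in rank overlapped.

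In 12 of the 16 mice all members lay on the same side of their group mean, and in the other 4, irradiated male replicate 3, irradiated female replicate 3 and no-UVB female replicates 1 and 3, they lay on both sides. The mean deviation of the members from their group mean was −1.05 on the log2 scale in irradiated female replicate 4 and 0.63 in irradiated female replicate 2. In no-UVB males it was −0.42 and −0.57 for replicates 1 and 2 and 0.55 and 0.43 for replicates 3 and 4, and it was −0.56 for irradiated male replicate 4. Over the 16 mice, the correlation of these deviations between members was 0.922 to 0.990 (median of 45 pairs 0.966), given as a description, since the values of a mouse share its library. Over 15107 other genes, the median correlation with the mean of the members was −0.009. The genes most alike were *Lce1k* (0.980), *Lce1j* (0.976), *Lce6a* (0.966), *Kctd4* (0.965), *Lce1l* (0.936), *Cyp2g1* (0.935), *Il18* (0.934), *Gm45609* (0.929), *Lce3f* (0.927) and *2210017I01Rik* (0.925). Summed markers of granular keratinocytes deviated by −0.30 in irradiated female replicate 4, by −0.08, −0.29, 0.17 and 0.20 in no-UVB males 1 to 4 and by −0.26 in irradiated male replicate 4, the same side as the members in each. In irradiated female replicate 2, where the members were highest, the granular markers deviated by 0.11 and the suprabasal markers by −0.02. Other lists moved with the members in some of these mice. Summed hair follicle markers deviated by −0.42, −0.74, 0.50 and 0.66 in no-UVB males 1 to 4, further than the granular markers, and by −0.21 in irradiated male replicate 4, but by 0.38 in irradiated female replicate 4 and −0.67 in irradiated female replicate 2, against the members in both. Neutrophil markers deviated by −0.32, −0.21, 0.22 and 0.31 in the same no-UVB males, −0.51 in irradiated male replicate 4, −0.25 in irradiated female replicate 4 and 0.32 in irradiated female replicate 2, on the members' side in each. In other mice they went against the members, at −0.24 in irradiated male replicate 1, −0.22 and 0.30 in no-UVB female replicates 2 and 4 and −0.05 in irradiated female replicate 1. They also did so at 0.265 in no-UVB female replicate 1 and −0.02 in irradiated female replicate 3, where the members were near 0 (−0.03 and 0.06). Over the 16 mice, the granular markers lay on the members' side in 14, the suprabasal markers in 12, the hair follicle markers in 11 and the neutrophil markers in 10, and the correlation with the members' mean deviation, again a description, was 0.895, 0.644, 0.247 and 0.493. The part of these cell types in the members' values was not tested.

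**Figure D4:**
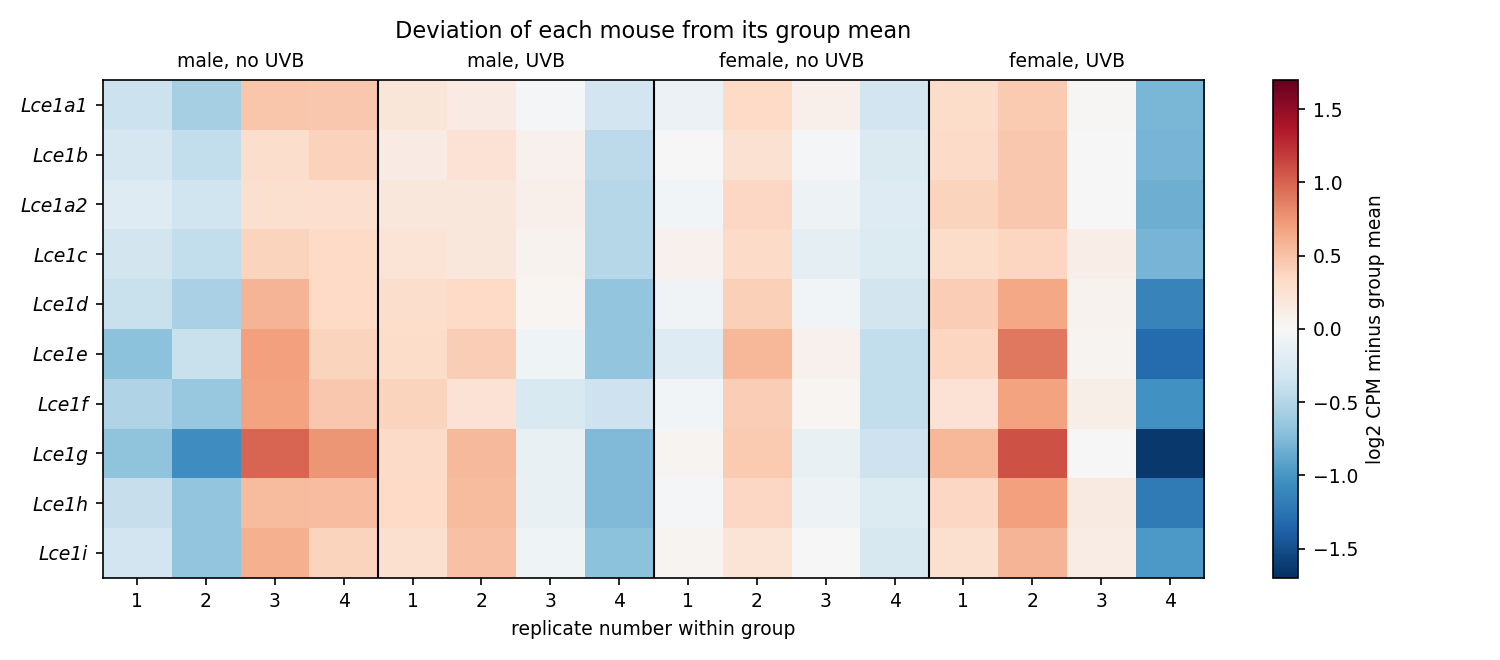
Deviation of each mouse from the mean of its group, as log2 CPM minus group mean, for the 10 members (rows) in the 16 mice (columns). In 12 columns all members have the same sign, and in the 4 others, whose means lie nearest to 0, the signs are mixed; irradiated female replicate 4 is lowest (mean −1.05) and irradiated female replicate 2 is highest (mean 0.63).

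The other late cornified envelope genes had values on both sides of those of the members. Of 11, 6 in males and 5 in females, all of group 3, passed the filter on low counts only through the irradiated mice, since fewer than 4 controls reached its limit (0.474 CPM in males and 0.455 in females). Their being tested thus depended on their levels in irradiated mice. Where no control reached the limit, a higher level after UVB was a condition of being tested. Of the genes that passed through the controls alone, 2 of 5 rose in males and 2 of 6 in females. None of these fell by both limits, and their medians were 0.87 and 0.64 on the log2 scale. *Lce6a* rose by 2.13 ± 0.34 in males and 1.72 ± 0.29 in females (edgeR, adjusted p = 0.00132 and 0.00479). *Lce1k* rose in males (1.65 ± 0.40, adjusted p = 0.0102) and had 0.73 ± 0.36 in females (edgeR, adjusted p = 0.209). *Lce1j*, which holds the second promoter block, had 0.87 ± 0.43 and 0.55 ± 0.34 (edgeR, adjusted p = 0.132 and 0.309). *Lce1l* was near 0, at −0.12 ± 0.28 and −0.16 ± 0.20 (edgeR, adjusted p = 0.736 and 0.649). *Lce1m* went from 544 ± 114 to 302 ± 71.2 CPM (SD, n = 4) in males, a log2 fold change of −0.83 ± 0.19 (edgeR, adjusted p = 0.00498), short of the fold limit. In females *Lce1m* was at 481 ± 66.1 and 507 ± 58.1 CPM, 0.08 ± 0.12 (edgeR, adjusted p = 0.696), and its response differed between the sexes by −0.92 ± 0.23 (edgeR, adjusted p = 0.0423).

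The group 3 genes were at low levels without UVB, and their levels are given as a description. *Lce3c* was at 2.32 ± 2.05 and 96.4 ± 32.6 CPM in males without and with UVB, where 3 of 4 controls reached the limit of the filter. In females, where all controls reached it, *Lce3c* rose from 1.22 ± 0.664 to 28.0 ± 8.19 CPM, a log2 fold change of 4.53 ± 0.34 (edgeR, adjusted p = 0.000106). *Lce3d* had 5 to 22 counts in no-UVB males and 5 to 17 in no-UVB females, and was at 40.6 to 96.2 CPM in irradiated males and 7.05 to 17.1 in irradiated females. None of the controls reached the limit for *Lce3a*, *Lce3b*, *Lce3e* and *Lce3f*, so no fold, test or sex difference of a response is given for them. *Lce3e* had 1 to 11 counts in no-UVB males and 3 to 8 in no-UVB females, and 22.5 to 62.5 and 3.40 to 6.09 CPM after UVB. *Lce3f* had 2 to 8 and 1 to 5 counts without UVB, and 11.0 to 34.1 and 0.744 to 3.21 CPM after it. *Lce3a* (1 to 11 and 0 to 9 counts) and *Lce3b* (0 to 3 and 0 to 4) had 7.76 to 22.5 and 6.49 to 28.0 CPM in irradiated males and 0.875 to 3.21 and 0.744 to 3.10 in irradiated females. For each of the 6 genes, every irradiated mouse was above every control of its sex, as it was for 22.9% of all genes tested in males and 11.1% in females. For *Lce3a*, *Lce3b*, *Lce3e* and *Lce3f* this is no finding. The filter fixed it, since no control and every irradiated mouse reached its limit.

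Among 16 other proteins of the envelope, 9 genes rose in males and, of 15 tested, 5 in females, with medians of 1.11 and 0.62. Without the genes that passed the filter only through the irradiated mice (2 in males and 1 in females), 7 of 14 rose in males and 4 of 14 in females (medians 0.93 and 0.58). *Loricrin*, encoding a main envelope protein, had 0.29 ± 0.14 and 0.23 ± 0.14 (edgeR, adjusted p = 0.0989 and 0.306). *Flg*, which encodes the precursor of filaggrin, rose by 3.86 ± 0.21 and 2.88 ± 0.30 (edgeR, adjusted p = 1.7e-06 and 0.000386), the highest values of the list. *Ivl*, encoding involucrin, rose by 2.14 ± 0.16 and 1.41 ± 0.14 (edgeR, adjusted p = 1.0e-05 and 0.000229). The lowest among the genes that rose in males was *Evpl*, encoding envoplakin, at 1.03 ± 0.09 (edgeR, adjusted p = 6.4e-06), and *Tchh*, encoding trichohyalin of the hair follicle, fell in males, at −1.24 ± 0.53 (edgeR, adjusted p = 0.0854).

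Of 15 small proline-rich genes, 12 were tested in males and 10 in females. Of these, 9 and 4 passed the filter only through the irradiated mice, were called higher in that sex and are not counted here. Of the others, 3 of 3 rose in males and 4 of 6 in females. *Sprr1b* had 7.03 ± 0.60 and 5.57 ± 0.29 (edgeR, adjusted p = 7.9e-05 and 2.3e-05). The lowest among those that rose in males was *Sprr4* (1.14 ± 0.19, adjusted p = 0.00135 in edgeR). *Sprr2e*, the lowest called in females, is one of those not counted, with 5 to 9 counts in its controls. Of 10 genes that cross-link or process envelope proteins, 7 rose in males and 6 in females, and none fell (medians 1.59 and 1.21). *Casp14*, a protease of cornification, had the highest values, 3.41 ± 0.25 and 2.30 ± 0.28 (edgeR, adjusted p = 1.6e-05 and 0.000779). The transglutaminase gene *Tgm3* rose by 2.85 ± 0.16 and 1.62 ± 0.27 (edgeR, adjusted p = 1.6e-06 and 0.00449). *Tgm1* rose by 1.39 ± 0.13 in males and had 0.77 ± 0.15 in females (edgeR, adjusted p = 1.8e-05 and 0.00709).

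Of 14 transcription regulators of late differentiation, 1 passed both limits in males, *Ovol1* at 1.08 ± 0.22 (edgeR, adjusted p = 0.00372), and 0 did in females, while 9 and 6 were higher at the adjusted p alone (medians 0.35 and 0.26). *Klf4*, a regulator of barrier formation, had 0.00 ± 0.19 and 0.13 ± 0.16 (edgeR, adjusted p = 0.987 and 0.634).

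Defining markers of keratinocytes were present in every group. Of 6 suprabasal markers, 4 rose in males and 3 in females. At the adjusted p alone, 5 were higher and 1 lower in males, and 4 were higher and 0 lower in females. The summed level of the 6 was 7497 to 11060 CPM in no-UVB males and 18060 to 23520 in irradiated males. It was 7043 to 10430 CPM in no-UVB females and 11180 to 14590 in irradiated females. *Krt2*, a keratin of the upper epidermis, rose by 4.34 ± 0.39 and 3.17 ± 0.49, and *Krt1*, a keratin of the spinous layer, by 3.13 ± 0.29 and 1.99 ± 0.26 (edgeR, adjusted p = 3.0e-05, 0.00303, 3.0e-05 and 0.00110). *Krt10*, the partner of *Krt1*, rose by 1.24 ± 0.14 in males and had 0.62 ± 0.17 in females (edgeR, adjusted p = 3.9e-05 and 0.0338). Of 6 granular markers, 4 and 3 rose, with sums of 3881 to 5480 and 7123 to 9554 CPM in males without and with UVB and 3893 to 5539 and 5695 to 7560 CPM in females. Of 6 basal markers, *Krt14* rose in males (1.43 ± 0.23, with 0.47 ± 0.16 in females), and *Krt15* fell in both sexes (−1.25 ± 0.13 and −1.11 ± 0.24; edgeR, adjusted p = 0.000645, 0.0801, 2.6e-05 and 0.0120). *Krt5* had 0.29 ± 0.16 and −0.23 ± 0.18 (edgeR, adjusted p = 0.151 and 0.425), and the basal sums were 6157 to 8953 and 8467 to 11860 CPM in males and 5187 to 8068 and 4647 to 7198 CPM in females. The part of a changed share of keratinocytes in the members' values was not tested.

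Markers of other cell types moved as well. The 6 fibroblast markers summed to 79060 to 86270 CPM in no-UVB males and 28380 to 39290 in irradiated males, with 2 genes lower by both limits. In females they summed to 19200 to 20540 and 12110 to 21850 CPM, with 0 lower. At the adjusted p alone, 5 fibroblast markers were lower in males, and 1 was lower and 1 higher in females. Of 7 neutrophil markers, 4 were called higher in males and 2 in females, 2 and 1 of which passed the filter only through the irradiated mice, with sums of 10.2 to 15.7 and 54.1 to 161 CPM in males and 10.4 to 16.3 and 19.6 to 29.1 CPM in females, and in each group 1 of the 7 was at 3 counts or fewer in all its mice. Of 4 stress keratin genes, 3 rose in each sex, with sums of 651 to 835 and 3333 to 6156 CPM in males and 529 to 1017 and 843 to 1507 CPM in females. Over all mice, 12 hair follicle markers summed to 46.5 to 155 CPM, 7 sebocyte markers to 4238 to 8985, 6 adipocyte markers to 1156 to 3086, 6 skeletal muscle markers to 12020 to 22590, 6 macrophage and Langerhans cell markers to 1036 to 1700, 6 T cell markers to 33.2 to 119.5 and 6 melanocyte markers to 55.5 to 144. Of the hair follicle markers only 5 were tested for UVB within a sex, and the others did not pass the filter on low counts. Among the genes tested in these 7 lists, 1 sebocyte gene rose in each sex, 1 muscle gene fell in males, and no other passed both limits for UVB. At the adjusted p alone, lower genes in males were 5 muscle, 5 T cell, 3 adipocyte, 3 hair follicle, 2 macrophage or Langerhans cell, 1 sebocyte and 1 melanocyte gene. Higher were 4 sebocyte, 3 melanocyte, 1 T cell, 1 hair follicle and 1 macrophage or Langerhans cell gene. In females, 3 T cell, 1 macrophage or Langerhans cell and 1 melanocyte gene were lower, and 3 sebocyte and 1 hair follicle gene higher. The part of these cell types in the members' values was not tested.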

How the data were processed

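RNA was measured in 16 mouse libraries, 4 per group. Per the labels, polyA RNA libraries were made with a directional kit. The authors deposited raw read counts per gene for each mouse, made with STAR against GRCm39; its version and the read layout are not given in the sources used here. The column for the strand that the kit reports was used, and the 4 summary rows were left out. Of 55359 identifiers, 54749 matched GENCODE. Counts were filtered with filterByExpr, scaled by TMM and fitted with edgeR 4.0.16 (quasi-likelihood, robust; R 4.3.3), within each sex for UVB and over 16 mice for sex differences. UVB calls needed an adjusted p under 0.1 and a log2 fold change past 1, other calls the adjusted p alone. SE is the log2 fold change divided by the square root of F. Deviations used log2 CPM with a prior count of 2. Alternatives were other scalings, filters, strands, thresholds, DESeq2 1.42.0, a replicate block and each mouse left out. Promoters were read from the GRCm39 genome.

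The members and lists were chosen with earlier results of these data known. Named genes are the members, other late cornified envelope genes with a mean of at least 1 CPM over the 16 mice, a fixed set of list genes with the highest and lowest called values of the lists, and the 10 genes most alike. Promoter blocks and neighbour ratios were chosen after the data were seen.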

Additional observations from a re-analysis of the deposited data

How the results depend on the processing

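The members called for UVB in males were 5 in the reported fit, 8 with the adjusted p alone, 4 to 7 with 1 mouse left out, 4 with the replicate block, where *Lce1i* had an adjusted p of 0.120, and 5 under the other settings. In females they were 3, with 5 by the adjusted p alone, 3 to 4 with 1 mouse left out, 2 with no filter beyond 1 count (*Lce1e*, adjusted p = 0.120 in edgeR) and 3 otherwise. For males against females after UVB the count was 1, with 0 at an adjusted p under 0.05, 0 with no filter beyond 1 count, 2 with the replicate block and 0 to 3 with 1 mouse left out. The response difference and the sex difference without UVB gave 0 members in every setting. The labels give no shared litter, batch or day for a replicate number, and the numbers were not taken to pair the mice. Deviations of same-numbered irradiated and control mice of a sex correlated at −0.115 to 0.217, and 2 of 8 irradiated mice were closest to the control of their own number. Those of same-numbered males and females of a treatment correlated at −0.123 to 0.148, and 3 of 4 irradiated and 2 of 4 no-UVB males were closest to the female of their own number. The members' mean deviation in irradiated mice 1 to 4 was 0.27, 0.34, −0.04 and −0.56 in males and 0.36, 0.63, 0.06 and −1.05 in females, the same order, and with the block *Lce1e* (0.0959) joined *Lce1f* (0.0693) after UVB (adjusted p, edgeR). Changes of sign concerned values near 0. *Lce1a2* in males was 0.0025 without regard to strand, 0.0075 with DESeq2 size factors, 0.011 with TMM without the 100 most abundant genes, 0.0069 in DESeq2, 0.0192 with every gene of at least 1 count and 0.0028 with the replicate block, and in females −0.0245 with upper quartile scaling and −0.0501 with the block. For the response difference, size factors, TMM without the 100 genes and DESeq2 gave 0.0083, 0.0137 and 0.0077 for *Lce1b* and 0.0042, 0.0095 and 0.0037 for *Lce1a2*. Without UVB, upper quartile scaling and TMM without the 100 genes gave −0.0066 and −0.0023 for *Lce1a1* and −0.0102 and −0.0051 for *Lce1c*. The cause of these changes was not tested.

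With 1 mouse left out, log2 values that changed sign ranged as follows. *Lce1a2* ran from −0.0972 to 0.1402 in males and from −0.142 to 0.2235 in females. The response difference ran from −0.0133 to 0.3359 for *Lce1a1*, −0.2217 to 0.1232 for *Lce1a2*, −0.2093 to 0.1338 for *Lce1b* and −0.0486 to 0.2745 for *Lce1c*. After UVB, males against females ran from −0.0143 to 0.3378 for *Lce1a1*, −0.1552 to 0.2051 for *Lce1a2*, −0.0793 to 0.2792 for *Lce1b* and −0.0524 to 0.2863 for *Lce1c*. Without UVB it ran from −0.1497 to 0.1761 for *Lce1a1*, −0.0142 to 0.197 for *Lce1a2*, −0.1226 to 0.1385 for *Lce1c*, −0.1796 to 0.2016 for *Lce1d*, −0.1249 to 0.3594 for *Lce1e*, −0.1347 to 0.3152 for *Lce1f*, −0.2536 to 0.4116 for *Lce1g*, −0.1413 to 0.24 for *Lce1h* and −0.1719 to 0.2443 for *Lce1i*.

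Over all genes, 675 higher and 547 lower were called for UVB in males, 579 higher and 705 lower with upper quartile scaling and 1124 higher and 923 lower with every gene of at least 1 count. The response difference gave 478 higher and 740 lower, 687 higher and 641 lower with DESeq2 size factors, 782 higher and 624 lower with TMM without the 100 genes, 1102 higher and 938 lower in DESeq2 and 229 higher and 495 lower with every gene of at least 1 count. After UVB, males against females gave 2222 higher and 2169 lower, and 1659 higher and 2736 lower with upper quartile scaling. With an adjusted p under 0.05 the response difference gave 171 higher and 317 lower, with the adjusted p alone UVB gave 4802 higher and 5051 lower in males and 2162 higher and 1787 lower in females, where the reported fit gave 275 higher and 183 lower, and with at least 10 counts in every mouse it gave 180 higher and 123 lower in females. After UVB, 1434 higher and 1682 lower were called with every gene of at least 1 count. Leaving out 1 mouse moved the background of the sex comparisons too. Genes with a higher response in males were 163 without irradiated male replicate 1, 242 without irradiated male replicate 2, 239 without no-UVB male replicate 1, 173 without no-UVB male replicate 2, 196 without irradiated female replicate 1, 302 without irradiated female replicate 2, 235 without no-UVB female replicate 3, 835 without irradiated female replicate 3, 747 without no-UVB female replicate 4 and 741 without no-UVB male replicate 3. Genes higher in males after UVB were 1322 without irradiated female replicate 1, and without UVB they were 762 without no-UVB male replicate 2 and 810 without no-UVB female replicate 2, from 1255 in the reported fit. Counts of *Lce1g* in no-UVB males start at 58, and its levels there had a coefficient of variation between mice of 63.9%.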
